A study of Mus musculus with 14 samples.

Results

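The Hox genes of the mouse uterus were described from whole uteri taken at day 3.5 of gestation and profiled on 14 one-colour Affymetrix arrays, 1 array per sample. Members were chosen by name. A probe set, the group of short probes that reads out one transcript, was taken when its only gene symbol in the platform annotation was Hoxa, Hoxb, Hoxc or Hoxd followed by a number. This gave 48 probe sets for 33 genes, out of 18193 genes that had a probe set of their own.

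All females were C57BL/6, and the series asks whether genotype shapes what folate supplied ahead of mating does to uterine expression. The 4 groups were Folr4-/- females given folinic acid (KO folinic acid, n = 4), Folr4-/- females given saline (KO saline, n = 3), wild-type females given folinic acid (WT folinic acid, n = 3) and wild-type females given saline (WT saline, n = 4). Folinic acid, a reduced folate, was injected intraperitoneally at 12.5 mg/kg, 10 and 3 days before mating, and the morning of the vaginal plug counted as day 0.5. The labels call the replicates biological, but some sample titles of a group share a code number whose meaning is not given, so n counts arrays. How the Folr4 allele was made is not given in the sources used here.

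Hox genes encode homeodomain transcription factors that lie in 4 clusters and are numbered by paralog group, with low numbers used toward the head of the embryo and high numbers toward the tail. In the female tract the neighbouring genes Hoxa9, Hoxa10, Hoxa11 and Hoxa13 are known as marks of oviduct, uterus, uterus with cervix, and upper vagina along the Müllerian duct. In mice, loss of Hoxa10 or Hoxa11 is known to impair implantation and the stromal response to progesterone, and both genes stay active in the adult uterus.

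The values were linear signals scaled to a common mean on each array, and differences are given on the log2 scale, where 1 unit is a doubling. Signal counted as above the filter when the mean log2 signal over all arrays reached the median over the non-control probe sets, 7.07 or a signal of 134. Signals of different probe sets depend on their probes, so levels were not set against each other between genes. In 18 genes of other organs that had a probe set, such as those of retina, lens and sperm, 0 were above the filter and mean signals ran from 2.53 to 66.3.

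Of the 48 Hox probe sets 23 were above the filter, for 17 genes, and 25 were below it. At a stricter filter, the upper 35 percent of mean signal, 13 probe sets of 10 genes were left, Hoxa9, Hoxa10, Hoxa11, Hoxb2, Hoxb3, Hoxb5, Hoxb6, Hoxd8, Hoxd9 and Hoxd10, and cluster C had 0. At the filter used, the genes in cluster A were Hoxa5, Hoxa9, Hoxa10 and Hoxa11, and in cluster B they were the unbroken run from Hoxb2 to Hoxb6. In cluster C they were Hoxc6, Hoxc8 and Hoxc10, and in cluster D Hoxd3, Hoxd8, Hoxd9, Hoxd10 and Hoxd11. Cluster A had 4 genes above the filter and 5 below. The counts were 5 and 4 in cluster B, 3 and 4 in cluster C, and 5 and 3 in cluster D.

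By paralog group, 7 genes of groups 9 to 11 were above the filter and 2, Hoxb9 and Hoxc9, were below it. Groups 12 and 13 had 0 genes above it and 5 below it, namely Hoxa13, Hoxb13, Hoxc13, Hoxd12 and Hoxd13. Groups 4 to 8 had 7 above and 5 below, and groups 1 to 3 had 3 above and 4 below. The 16 genes with every probe set below the filter were Hoxa2, Hoxa3, Hoxa4, Hoxa7, Hoxa13, Hoxb1, Hoxb7, Hoxb9, Hoxb13, Hoxc4, Hoxc5, Hoxc9, Hoxc13, Hoxd1, Hoxd12 and Hoxd13. A low signal does not show that a gene is silent, since its probes may bind poorly.

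**Figure D1:**
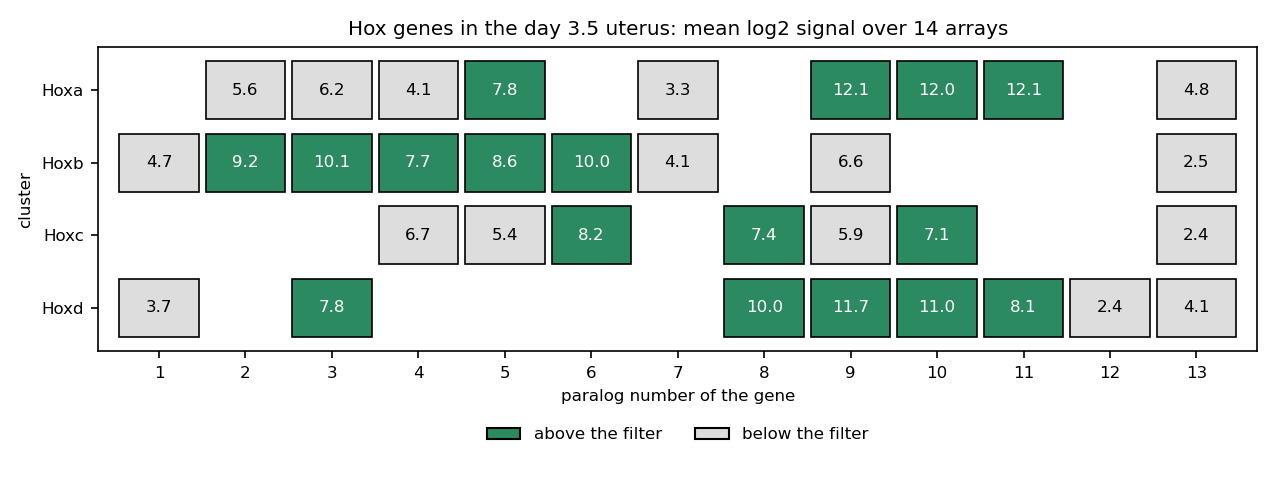
Map of the Hox clusters, with clusters as rows and paralog number along the x axis. Each box gives the mean log2 signal over 14 arrays of a gene's brightest probe set, filled green at or above the filter of 7.07 and grey below it. Places without a box hold no value here. Values of different boxes come from different probes and are not comparable in size. The boxes of groups 12 and 13 are all grey.

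Nearest to the filter, Hoxc10 had a mean signal of 135, Hoxc8 of 164 and the Hoxb4 probe set 1460379_at of 210.1, all just above it. Just below it lay the second Hoxb4 probe set, 1451761_at, at 115, Hoxc4 at 101 and Hoxb9 at 95.9. Hoxb4 and Hoxc6 were the 2 genes with probe sets on both sides of the filter, among 11 genes with several probe sets. A further 3 probe sets were annotated to a pair of Hox genes and were not members. Those of Hoxd3 with Hoxd4 had mean log2 signals of 7.85 and 9.37, and that of Hoxb7 with Hoxb8 had 8.13. All 3 shared probe sets were thus above the filter, while the single-gene probe set of Hoxb7 was not.

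The genes Hoxa9 to Hoxa13 lie side by side on chromosome 6, and the signal passed the filter for the first 3 of them and not for Hoxa13. The promoter windows of these genes, 300 bases around the annotated start, are shown because the tract genes meet this boundary there. They are from RefSeq on GRCm38.p6, minus strand, with every CG dinucleotide in capitals.
Hoxa9, chr6:52227321-52227620: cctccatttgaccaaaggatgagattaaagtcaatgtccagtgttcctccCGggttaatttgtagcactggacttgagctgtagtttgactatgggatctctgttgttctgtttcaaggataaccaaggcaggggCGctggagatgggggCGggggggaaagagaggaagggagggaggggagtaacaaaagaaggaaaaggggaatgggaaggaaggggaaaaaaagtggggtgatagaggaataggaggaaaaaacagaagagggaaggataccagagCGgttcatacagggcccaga
Hoxa10, chr6:52234890-52235189: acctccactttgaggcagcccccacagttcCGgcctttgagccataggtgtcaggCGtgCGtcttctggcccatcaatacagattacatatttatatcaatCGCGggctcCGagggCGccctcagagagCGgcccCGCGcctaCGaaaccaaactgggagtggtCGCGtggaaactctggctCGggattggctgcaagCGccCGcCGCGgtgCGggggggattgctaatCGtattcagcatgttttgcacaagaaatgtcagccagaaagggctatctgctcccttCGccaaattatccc
Hoxa10, chr6:52240805-52241104: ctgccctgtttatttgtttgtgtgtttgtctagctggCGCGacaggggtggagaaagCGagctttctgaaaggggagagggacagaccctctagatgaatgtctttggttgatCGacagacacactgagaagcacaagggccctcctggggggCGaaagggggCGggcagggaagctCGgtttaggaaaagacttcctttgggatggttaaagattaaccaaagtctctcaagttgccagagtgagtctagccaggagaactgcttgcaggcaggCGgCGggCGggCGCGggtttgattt
Hoxa11, chr6:52245761-52246060: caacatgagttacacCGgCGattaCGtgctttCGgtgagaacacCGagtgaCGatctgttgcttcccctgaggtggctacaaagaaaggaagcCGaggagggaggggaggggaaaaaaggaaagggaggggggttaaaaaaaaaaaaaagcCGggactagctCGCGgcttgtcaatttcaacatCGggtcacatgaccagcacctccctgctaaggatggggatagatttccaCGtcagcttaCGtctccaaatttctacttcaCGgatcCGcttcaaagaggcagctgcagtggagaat
Hoxa13, chr6:52260831-52261130: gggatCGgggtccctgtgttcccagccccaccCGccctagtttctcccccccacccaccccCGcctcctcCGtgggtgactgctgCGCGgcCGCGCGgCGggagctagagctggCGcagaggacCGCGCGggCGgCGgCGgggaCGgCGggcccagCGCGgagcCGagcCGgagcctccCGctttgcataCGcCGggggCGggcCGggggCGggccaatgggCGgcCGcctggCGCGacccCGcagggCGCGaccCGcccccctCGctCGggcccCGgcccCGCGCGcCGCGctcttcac

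The window of Hoxa13, which was below the filter, held 45 CG dinucleotides. The Hoxa9 window held 4, the Hoxa10 windows 21 at the start nearer Hoxa9 and 12 at the start nearer Hoxa11, and the Hoxa11 window 15. A window was found for 22 Hox genes, 24 windows in all, with a median of 14.5 CG dinucleotides against 7 over all 32851 promoter windows. The median was 17.5 in the 12 windows of Hox genes above the filter and 13 in the 9 windows of those below it.

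Short motifs were searched on both strands. The TATA box TATAAA was in 16.7% of Hox windows against 13.6% of all windows, and in this neighbourhood only in the Hoxa10 window nearer Hoxa9. The CCAAT box was in 62.5% of Hox windows against 37.4% of all windows, and in the windows shown it was in that Hoxa10 window and in Hoxa13. The Hox-Pbx composite TGATTNAT was in 8.33% against 3.22%, in Hoxa2 and Hoxd11, and the homeodomain core TAATTA in 8.33% against 5.29%, in both Hoxd11 windows. None of the windows shown held either homeodomain motif as spelled here, which draws no line to any factor.

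Hoxa9 was read by 2 probe sets, both above the filter on all 14 arrays. The brighter, 1455626_at, had log2 signals of 12.17, 11.81, 12.75 and 11.68 in KO folinic acid uteri, 11.97, 12.19 and 12.07 in KO saline uteri, 12.19, 12.07 and 11.91 in WT folinic acid uteri, and 12.39, 11.91, 12.38 and 12.11 in WT saline uteri. All 4 groups overlapped, and the KO folinic acid group held both the highest and the lowest array. The 4 differences between groups ran from -0.14 to 0.05. The other probe set, 1421579_at, had 9.17, 9.10, 9.58 and 8.90 in KO folinic acid uteri, 8.80, 9.08 and 9.27 in KO saline uteri, 9.38, 8.89 and 9.12 in WT folinic acid uteri, and 9.56, 9.04, 9.43 and 9.33 in WT saline uteri. Its groups overlapped too.

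Hoxa10, required in mice for a receptive uterus and for decidualization, was also above the filter on all 14 arrays with both of its probe sets. The brighter, 1431475_a_at, had log2 signals of 11.84, 11.53, 11.82 and 11.35 in KO folinic acid uteri and 12.10, 11.83 and 12.53 in KO saline uteri. It had 12.34, 11.89 and 12.11 in WT folinic acid uteri and 12.36, 12.31, 11.69 and 12.18 in WT saline uteri. The KO folinic acid arrays all lay below the WT folinic acid arrays, and their highest just passed the lowest KO saline array. The other 3 groups overlapped one another.

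The Hoxa10 probe set differed by -0.48 ± 0.20 (SE) between KO and WT under folinic acid, with a 95% interval from -0.91 to -0.05 and limma's adjusted p = 0.999 over 22519 probe sets. Folinic acid against saline in KO gave -0.52 ± 0.20, with an interval from -0.94 to -0.09 and an adjusted p of 0.309. These are folds of 0.718 and 0.699, and the unadjusted p-values were 0.0308 and 0.0213. Neither passed the threshold. KO against WT under saline differed by 0.01, and folinic acid against saline in WT by -0.02.

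The interaction of genotype and folinic acid for this Hoxa10 probe set, which tests whether the folinic acid difference differs between genotypes, was -0.49 ± 0.28 with an interval from -1.10 to 0.11 (limma, adjusted p = 0.905), and -0.30 without KO saline replicate 3. The second Hoxa10 probe set, 1446408_at, gave -0.34 ± 0.34 between KO and WT under folinic acid, which was 0.05 without WT folinic acid replicate 3, and -0.06 ± 0.34 for folinic acid against saline in KO. Without KO saline replicate 3, the KO array with the highest signal, the difference of 1431475_a_at after folinic acid in KO was -0.33.

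Hoxa11, needed in mice for uterine gland formation and decidualization, was above the filter on all 14 arrays. It had log2 signals of 12.13, 11.35, 12.51 and 11.18 in KO folinic acid uteri, 12.23, 12.53 and 12.47 in KO saline uteri, 12.34, 12.00 and 11.92 in WT folinic acid uteri, and 12.30, 12.21, 11.45 and 12.32 in WT saline uteri. KO folinic acid replicates 2 and 4 and WT saline replicate 3 were low, and all groups overlapped. Folinic acid against saline in KO gave -0.62 ± 0.29, with an interval from -1.23 to -0.01 (limma, adjusted p = 0.382), and without KO folinic acid replicate 4 it gave -0.41. KO against WT differed by -0.29 ± 0.29 under folinic acid, or -0.09 without KO folinic acid replicate 4, and by 0.34 ± 0.29 under saline, or 0.13 without WT saline replicate 3.

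Hoxa11os, the antisense RNA of the Hoxa11 locus, is a neighbour and no member, and is given because it lies at the Hoxa11 gene. Its probe set 1452400_a_at had log2 signals of 10.96, 10.94, 11.21 and 10.67 in KO folinic acid uteri, 11.84, 11.44 and 11.49 in KO saline uteri, 11.84, 11.50 and 11.35 in WT folinic acid uteri, and 11.39, 11.47, 10.08 and 11.69 in WT saline uteri. The KO folinic acid arrays lay below all KO saline and all WT folinic acid arrays, and the lowest array of all was WT saline replicate 3. Groups did not overlap for 10.3% of all probe sets for folinic acid in KO. Between KO and WT under folinic acid that share was 4.94%. Folinic acid against saline in KO gave -0.64 ± 0.29 (limma, adjusted p = 0.376), KO against WT under folinic acid -0.61 ± 0.29 (adjusted p = 0.999), and the interaction -1.05 ± 0.42 (adjusted p = 0.905). Without WT saline replicate 3 the Hoxa11os interaction was -0.69, and folinic acid against saline in WT was 0.05 where all arrays gave 0.41. None passed the threshold, and the strand read by the probes of either gene was not checked here.

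Markers of uterine cell types also differed between these arrays. The summed signal of 8 endometrial stroma markers ran from 126300 to 135600 in KO folinic acid uteri and from 140600 to 171700 in KO saline uteri. It ran from 119700 to 127800 in WT folinic acid uteri and from 145600 to 168000 in WT saline uteri. The sums after folinic acid thus lay below those after saline in both genotypes, without overlap. Groups did not overlap for 10.3% of all probe sets for folinic acid in KO and 4.96% in WT. Mean signals of the 8 markers ran from 2512 to 41070, so the brightest, Col3a1, weighs most in the sum. For folinic acid 7 were lower and 1 higher in KO, and 6 lower and 2 higher in WT, with 0 past the threshold. At an unadjusted limma p under 0.05, 5 of the 8 were lower in WT, against 2.71% of all probe sets. In KO 2 of the 8 were lower at that p, against 12.8%. The sum of 8 epithelial markers ran from 24620 to 43650 in KO folinic acid uteri and from 43180 to 48070 in KO saline uteri, and from 32140 to 47820 and from 27680 to 51210 in WT folinic acid and WT saline uteri. The sum of 6 leukocyte markers ran from 3963 to 17910 in KO folinic acid uteri and from 3121 to 5552 in KO saline uteri, and from 4820 to 6080 in WT folinic acid and 4224 to 8231 in WT saline uteri. The 3 leukocyte markers above the filter were all higher for folinic acid in KO, with a median log2 difference of 0.91. Of them 2 had an unadjusted limma p under 0.05, against 12.8% of all probe sets, and 0 passed the threshold. Their median log2 deviation from the mean of all arrays was 1.77, -0.50, 0.11 and 0.59 in KO folinic acid replicates 1 to 4. It was -0.96, -0.28 and -0.07 in the KO saline arrays. The sum of 3 red blood cell markers ran from 319 to 501 in KO folinic acid uteri and from 597 to 764 in KO saline uteri, without overlap. It ran from 525 to 1092 in WT folinic acid and from 462 to 1402 in WT saline uteri. Only Alas2, with a mean signal of 472, was above the filter, and the others had 73.0 and 22.0, so this sum rests mostly on Alas2. For folinic acid in KO, groups did not overlap for 10.3% of all probe sets. No marker of these lists was at the floor on all arrays. In whole tissue, fewer cells of a type and less RNA per cell cannot be told apart, and the part of cell makeup in the Hoxa10 and Hoxa11 values was not tested.

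Hoxa13 stayed below the filter on all 14 arrays. Its log2 signals were 5.0, 2.68, 4.19 and 4.58 in KO folinic acid uteri, 5.53, 5.73 and 4.16 in KO saline uteri, 5.15, 2.99 and 5.09 in WT folinic acid uteri, and 5.14, 5.07, 6.24 and 5.23 in WT saline uteri. All groups overlapped, and the mean signal of 27.3 lay within the range of the genes of other organs. Squamous epithelium markers of vagina and cervix were nevertheless above the filter for 4 of the 5 that had a probe set, and their summed signal ran from 1432 to 7583 in KO folinic acid, 1177 to 3248 in KO saline, 1428 to 9262 in WT folinic acid and 273 to 2438 in WT saline uteri. These markers thus varied widely between arrays of one group. For folinic acid in WT all 4 above the filter were higher, with a median log2 difference of 2.31. All 4 had an unadjusted limma p under 0.05, against 2.71% of all probe sets, and 0 passed the threshold. Their median log2 deviation from the mean of all arrays was -3.16 and -2.64 in WT saline replicates 2 and 4.

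**Figure D2:**
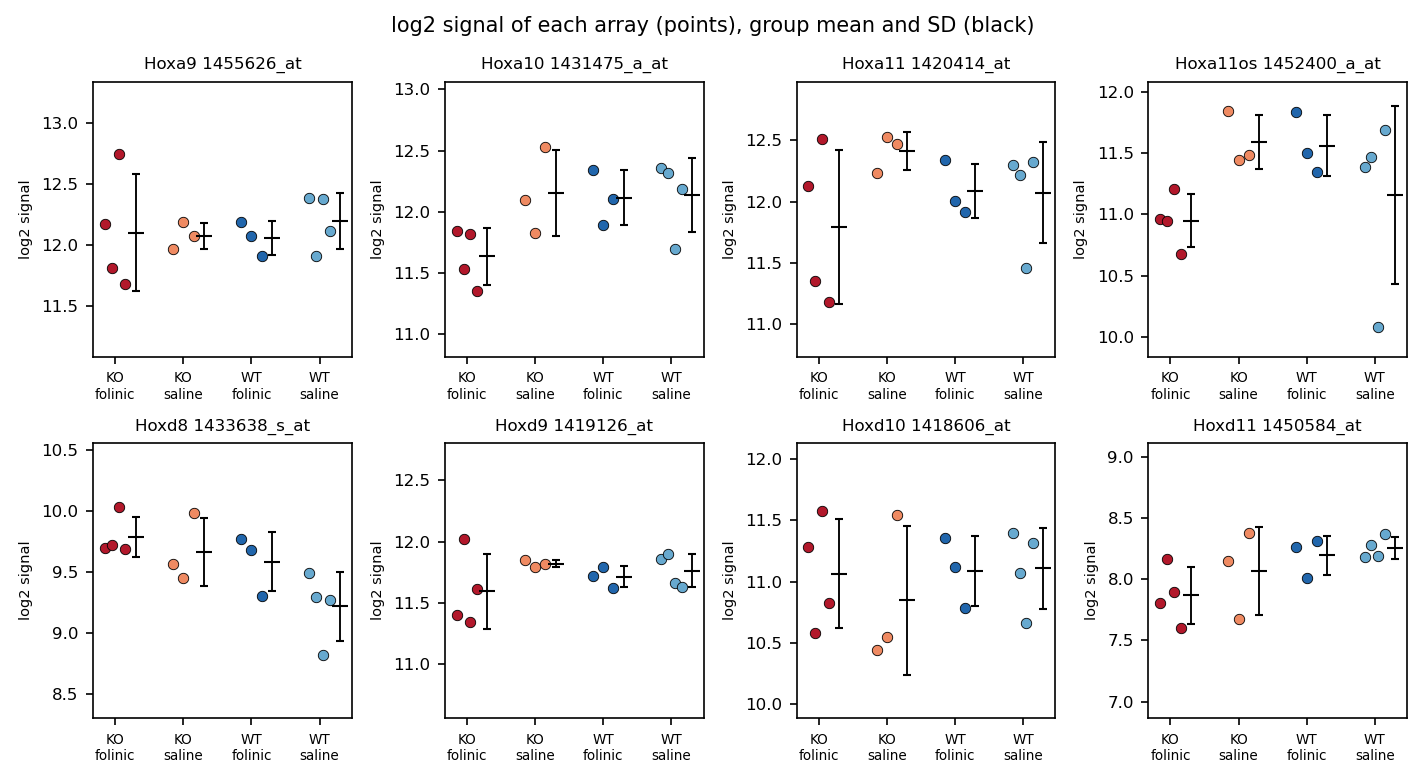
Log2 signal (y axis) of each array by group (x axis) for Hoxa9, Hoxa10, Hoxa11, the antisense RNA Hoxa11os and 4 genes of cluster D, each from the probe set named above its panel. Points are arrays and black marks are the group mean and SD, with 4, 3, 3 and 4 arrays from left to right, and every panel spans the same log2 range. For Hoxa10 the KO folinic acid points lie below all WT folinic acid points, and for Hoxa9 all groups overlap.

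Posterior genes of cluster D act with cluster A genes in limb and urogenital development. In this cluster Hoxd8 to Hoxd11 were above the filter on all 14 arrays, and Hoxd12 and Hoxd13 were below it on all 14. Hoxd9 averaged 11.59 ± 0.31 in KO folinic acid, 11.82 ± 0.03 in KO saline, 11.71 ± 0.09 in WT folinic acid and 11.76 ± 0.14 in WT saline uteri (SD, n = 4, 3, 3 and 4). Hoxd10 averaged 11.07 ± 0.45 in KO folinic acid, 10.85 ± 0.61 in KO saline, 11.09 ± 0.29 in WT folinic acid and 11.11 ± 0.33 in WT saline uteri. The differences of both genes lay within the spread between arrays.

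Hoxd11 had log2 signals of 7.81, 8.17, 7.89 and 7.60 in KO folinic acid uteri, 8.15, 7.68 and 8.38 in KO saline uteri, 8.26, 8.01 and 8.31 in WT folinic acid uteri, and 8.18, 8.28, 8.19 and 8.37 in WT saline uteri. The highest KO folinic acid array, 8.17, was nearly level with the lowest WT saline array, 8.18. These 2 groups differ in both genotype and injection and were not compared, and no share over all probe sets was taken. The other pairs of groups overlapped. Under folinic acid KO against WT gave -0.33 ± 0.20 (limma, adjusted p = 0.999).

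Hoxd8 gave different values from its 2 probe sets. With 1433638_s_at the log2 signals were 9.70, 9.72, 10.03 and 9.69 in KO folinic acid uteri, 9.57, 9.45 and 9.98 in KO saline uteri, 9.77, 9.68 and 9.31 in WT folinic acid uteri, and 9.49, 9.30, 8.83 and 9.27 in WT saline uteri. The WT saline arrays were the lowest group, overlapping KO saline and WT folinic acid in 1 array each way. KO against WT under saline gave 0.44 ± 0.19 with this Hoxd8 probe set (limma, adjusted p = 0.9998), and 0.29 without KO saline replicate 3.

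With 1431099_at the Hoxd8 log2 signals were 9.94, 9.63, 10.28 and 9.83 in KO folinic acid uteri, 9.91, 10.09 and 10.22 in KO saline uteri, 10.30, 9.85 and 9.38 in WT folinic acid uteri, and 10.08, 10.01, 10.06 and 10.28 in WT saline uteri. WT folinic acid replicate 3 was lowest, and all groups overlapped. KO against WT under saline gave -0.04 ± 0.20 with it. Folinic acid against saline in WT gave 0.36 ± 0.19 with 1433638_s_at, or 0.23 without WT saline replicate 3, and -0.27 ± 0.20 with 1431099_at, or -0.04 without WT folinic acid replicate 3.

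Hoxd3, which patterns the first neck vertebrae, had log2 signals of 8.24, 7.65, 8.58 and 7.97 in KO folinic acid uteri, 7.63, 7.40 and 7.83 in KO saline uteri, 7.64, 7.37 and 8.12 in WT folinic acid uteri, and 8.0, 7.97, 7.40 and 7.91 in WT saline uteri. KO folinic acid arrays were mostly high, but every pair of groups overlapped. Folinic acid against saline in KO gave 0.49 ± 0.26, with an interval from -0.06 to 1.03 (limma, adjusted p = 0.449).

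Hoxa5, known for its role in lung development, had 2 probe sets above the filter. With 1443803_x_at the log2 signals were 7.67, 8.61, 8.13 and 7.86 in KO folinic acid uteri, 7.37, 8.52 and 7.81 in KO saline uteri, 8.08, 5.39 and 8.11 in WT folinic acid uteri, and 7.39, 8.05, 7.66 and 7.70 in WT saline uteri. WT folinic acid replicate 2 stood far below the rest. KO against WT under folinic acid gave 0.87 ± 0.52 with this Hoxa5 probe set, -0.03 without that array and -0.01 ± 0.30 with the other probe set, 1448926_at.

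With 1448926_at the Hoxa5 log2 signals were 7.86, 8.11, 7.25 and 8.21 in KO folinic acid uteri, 7.77, 8.08 and 6.69 in KO saline uteri, 7.89, 7.99 and 7.72 in WT folinic acid uteri, and 7.83, 8.01, 8.32 and 8.01 in WT saline uteri. KO saline replicate 3 was the lowest of all. Under saline KO against WT gave -0.53 ± 0.30 (limma, adjusted p = 0.9998) and -0.12 without that array, against 0.20 ± 0.52 with 1443803_x_at.

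Hoxc6, a mid-cluster gene of the thoracic region in the embryo, showed the same array low. Its probe set 1427361_at had log2 signals of 7.90, 8.52, 7.04 and 7.76 in KO folinic acid uteri, 7.93, 7.84 and 6.54 in KO saline uteri, 7.95, 8.35 and 8.34 in WT folinic acid uteri, and 8.41, 8.06, 8.96 and 7.84 in WT saline uteri. KO saline replicate 3 was lowest and WT saline replicate 3 highest. Under saline the difference of KO and WT was -0.88 ± 0.38, with an interval from -1.69 to -0.07 (limma, adjusted p = 0.9998), which was -0.43 without KO saline replicate 3 and -0.67 without WT saline replicate 3. The Hoxc6 probe set 1427362_x_at gave -0.46 ± 0.36 in that comparison, or -0.14 without WT saline replicate 3, and 1427454_at, which lay below the filter, gave -0.0031 ± 0.58 in a fit with no filter. Probes of sets ending in _x_at or _s_at can bind more than one transcript.

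The other Hox genes above the filter, Hoxb2, Hoxb3, Hoxb4, Hoxb5, Hoxb6, Hoxc8 and Hoxc10, are read from the plot of differences. Their probe sets all overlapped between the groups of every comparison, and every 95% interval held 0. Hoxb3 had 2 probe sets above the filter, and for folinic acid in KO 1456229_at gave 0.29 ± 0.19 and 1427605_at -0.17 ± 0.27.

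Over all Hox probe sets above the filter, limma called 0 of 23 at an adjusted p of 0.05 in every comparison and in the 4-group F test. Over all 22519 probe sets, the calls were 1 between KO and WT under folinic acid (0.00444%), 1 between KO and WT under saline (0.00444%), 0 (0%) for folinic acid in KO, 0 (0%) for folinic acid in WT, 0 (0%) for the interaction and 2 (0.00888%) in the F test. Without KO folinic acid replicate 2, folinic acid in KO called 666 probe sets of all (2.96%) and 0 of the 23 Hox probe sets, and the F test called 7. At an unadjusted p under 0.05, 1 Hox probe set was counted between KO and WT under folinic acid against 3.81% of all probe sets. The count was 2 between KO and WT under saline against 3.11%, 2 for folinic acid in KO against 12.8%, 0 for folinic acid in WT against 2.71%, 0 for the interaction against 4.9%, and 2 in the F test against 6.3%. The F test counted Hoxd8 1433638_s_at (limma, adjusted p = 0.744) and Hoxa10 1431475_a_at (adjusted p = 0.774).

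Groups did not overlap for 1 Hox probe set between KO and WT under folinic acid, Hoxa10, against 4.94% of all probe sets. That count was 0 between KO and WT under saline (4.42% of all), 0 for folinic acid in KO (10.3%) and 0 for folinic acid in WT (4.96%). The shares of Hox probe sets were near or below these backgrounds, apart from the 2 at an unadjusted p under saline, where the 2 genes were Hoxc6 and Hoxd8.

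The median log2 difference of the 23 Hox probe sets was -0.01 between KO and WT under folinic acid, -0.12 between KO and WT under saline, 0.07 for folinic acid in KO, -0.06 for folinic acid in WT and 0.17 for the interaction. Over all probe sets these medians were -0.01, -0.02, 0.01, 0.01 and 0.01. Single arrays moved these medians. Without WT saline replicate 3 the Hox median between KO and WT under saline was -0.026 and that of the interaction 0.05, and without KO folinic acid replicate 2 that of folinic acid in KO was -0.016. Between KO and WT under folinic acid it ran from -0.08 to 0.05 without 1 array, and for folinic acid in WT from -0.13 to -0.01. The 95% interval lay within 1 log2 unit of 0, a doubling or halving, for 19, 18, 18 and 20 of the 23 Hox probe sets in the 4 comparisons. In the interaction it did so for 10 of 23. Changes smaller than a doubling were bounded for fewer probe sets. The median residual SD was 0.38 over Hox probe sets and 0.29 over all.

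**Figure D3:**
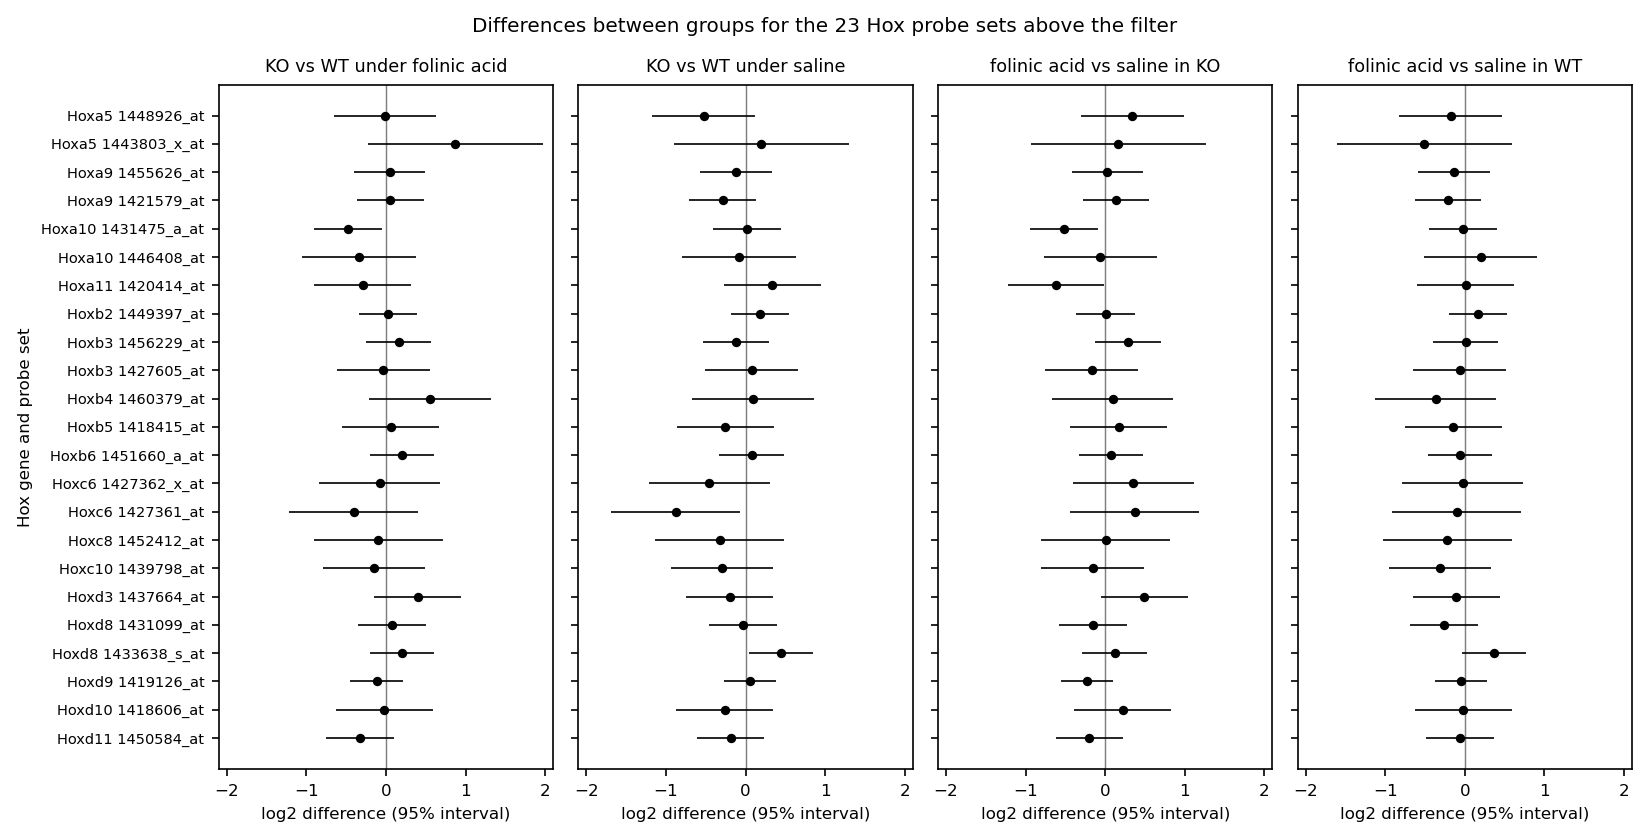
Log2 difference (x axis) with its 95% interval for each of the 23 Hox probe sets above the filter (y axis), in 4 panels for KO against WT under folinic acid, KO against WT under saline, folinic acid against saline in KO, and folinic acid against saline in WT. Points are limma estimates, and values right of 0 are higher in the group named first. Intervals that miss 0 are those of Hoxa10 1431475_a_at in the first panel, Hoxc6 1427361_at and Hoxd8 1433638_s_at in the second, and Hoxa10 1431475_a_at and Hoxa11 in the third, none of which passed after adjustment.

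Genes known to act with, on or beside the Hox genes were counted from 4 lists, and in every comparison 0 members passed the threshold. Of 9 TALE cofactors, the homeodomain partners that bind DNA with Hox proteins, 7 were above the filter, Pbx2, Pbx3, Meis1, Meis2, Meis3, Pknox1 and Pknox2. At an unadjusted p under 0.05 the cofactors counted 0 of 7 in every comparison, where the share over all probe sets was 2.71% to 12.8%. Meis2 gave 0.24 ± 0.22 and Pbx2 0.18 ± 0.16 between KO and WT under folinic acid, while Pknox1 gave -0.32 ± 0.20 and Meis1 0.34 ± 0.26 for folinic acid in KO. Pbx2 gave -0.29 ± 0.16 and Pknox2 0.31 ± 0.31 for folinic acid in WT, and Meis3 gave 0.22 ± 0.28 between KO and WT under saline.

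Of 25 chromatin regulators of Hox clusters, which are Trithorax and Polycomb proteins and their partners, 24 were above the filter. The Polycomb genes Ezh1, a histone H3 methyltransferase, and Phc2 gave 0.57 ± 0.21 (limma, adjusted p = 0.283) and 0.48 ± 0.22 (adjusted p = 0.378) for folinic acid in KO. These 2 of 24 were the members at an unadjusted p under 0.05 in any comparison, where the share over all probe sets for folinic acid in KO was 12.8%. Ezh2, its paralog, gave -0.41 ± 0.25 and Pcgf2 -0.36 ± 0.26 between KO and WT under saline. Ring1 gave -0.19 ± 0.15 and Gmnn -0.41 ± 0.32 between KO and WT under folinic acid. Bmi1 gave 0.30 ± 0.22 and Kdm6b, an H3K27 demethylase, -0.23 ± 0.17 for folinic acid in WT.

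Of 27 genes of the Hoxa10 and Hoxa11 pathway in the uterus, 22 were above the filter. In KO, folinic acid against saline gave -1.61 ± 0.56 for Ihh (limma, adjusted p = 0.259), the hedgehog ligand that progesterone induces in uterine epithelium, and -0.31 ± 0.12 for Esr1 (adjusted p = 0.288), an estrogen receptor. Ihh averaged log2 signals of 8.27 in KO folinic acid, 9.88 in KO saline, 9.43 in WT folinic acid and 9.56 in WT saline uteri. Of 8 epithelial markers 7 were lower after folinic acid in KO, with a median log2 difference of -0.23, 2 at an unadjusted p under 0.05 and 0 past the threshold, and their part in the Ihh value was not tested. The list had 4 of its 22 members at an unadjusted p under 0.05 in that comparison, 1 higher and 3 lower, with a median of -0.16 against 0.01 over all probe sets. The share at that p over all probe sets was 12.8%.

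Between KO and WT under folinic acid, Cdkn1a, the cell cycle inhibitor p21, gave 0.59 ± 0.19 (limma, adjusted p = 0.999) and Ihh -1.16 ± 0.56, or -0.69 without KO folinic acid replicate 1. Under saline, Esr1 gave 0.23 ± 0.12 and Wnt4, a decidualization ligand, -0.72 ± 0.42. The cell cycle inhibitor Cdkn1b gave -0.33 ± 0.20 and Ctnnb1, which encodes beta-catenin, -0.19 ± 0.13 for folinic acid in WT. The interaction was 0.86 ± 0.45 for Lfng and 1.13 ± 0.60 for Wnt4.

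Of 29 neighbours of the Hox clusters 19 were above the filter. Besides Hoxa11os, Nfe2l2, a stress response factor beside cluster D, gave 0.42 ± 0.16 (limma, adjusted p = 0.999) between KO and WT under folinic acid. Hnrnpa1, an RNA-binding protein beside cluster C, gave 0.40 ± 0.15 (adjusted p = 0.290) for folinic acid in KO and 0.17 ± 0.15 in WT. Lnpk, beside cluster D, gave -0.39 ± 0.24 between KO and WT under saline and an interaction of 0.55 ± 0.35. Of the 40 values of named list members, 30 moved by over 1.5 times toward 0, or past it, without the array that moved each most.

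Some arrays held the extremes of many Hox probe sets. WT saline replicate 3 held the highest value of 7 of the 23 Hox probe sets, those of Hoxa5, Hoxb4, Hoxb5, Hoxc6 with 2, Hoxc8 and Hoxc10, and the lowest of 2, Hoxb2 and Hoxd8. This array also had the highest actin and Gapdh 3-prime to 5-prime signal ratios, 3.65 and 2.49, both signs of RNA quality. KO folinic acid replicate 4 held the lowest value of 5, those of Hoxa9, Hoxa10 with 2, Hoxa11 and Hoxd11. The part of RNA quality in these values was not tested.

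**Figure D4:**
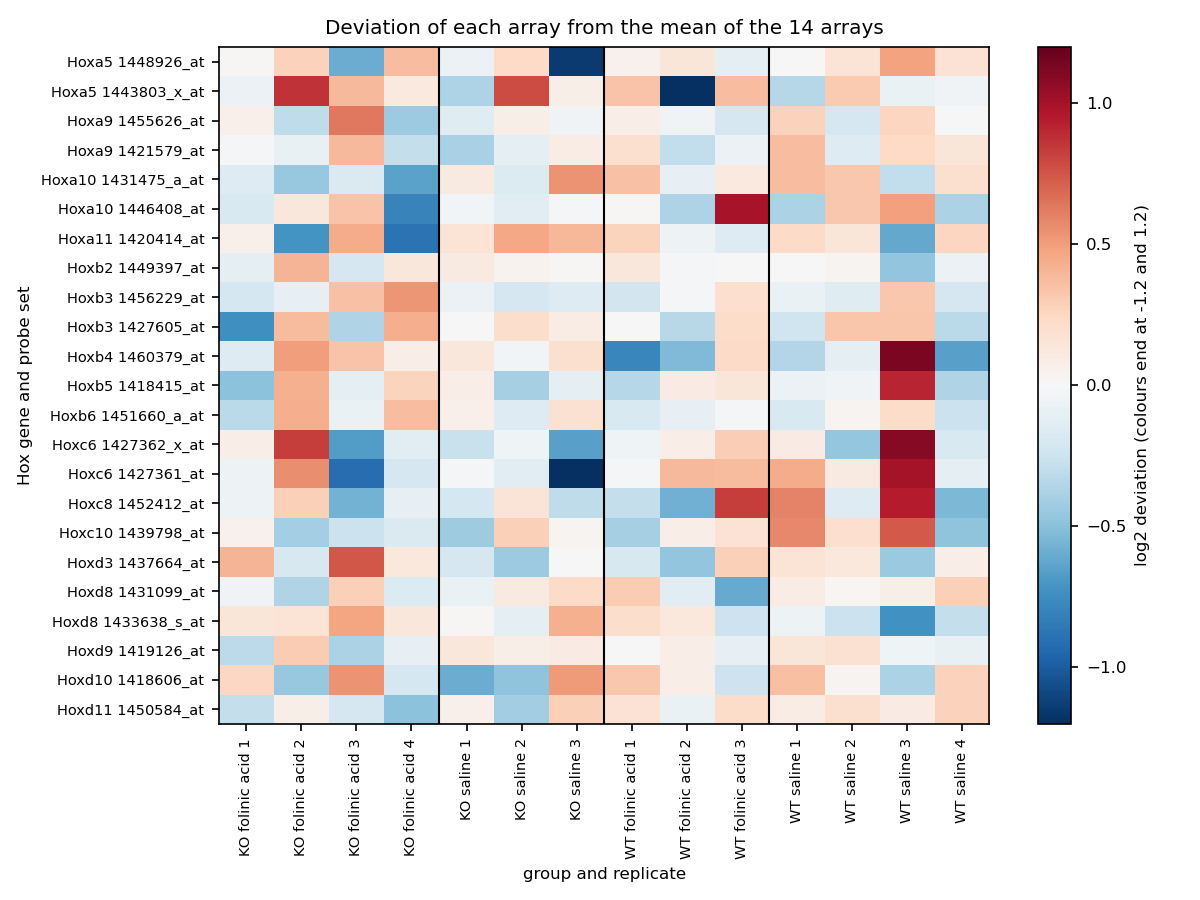
Log2 deviation of each array (x axis, by group and replicate) from the mean of the 14 arrays for the 23 Hox probe sets above the filter (y axis), with red above and blue below the mean and colours ending at -1.2 and 1.2. WT saline replicate 3 is red for Hoxb4, Hoxb5, Hoxc6, Hoxc8 and Hoxc10 and blue for Hoxa11 and Hoxd8 1433638_s_at. KO folinic acid is blue throughout for Hoxa10 1431475_a_at.

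Below the filter, mean signals of the 25 Hox probe sets ran from 5.01 to 115. Hoxa3 had 4 probe sets there, with mean signals from 25.4 to 72.5, and Hoxc5 had 3, from 5.01 to 41.5. In a fit with no filter the Hoxa4 probe set 1420226_x_at, with a mean signal of 5.76, gave -3.45 ± 0.89 for folinic acid in KO (limma, adjusted p = 0.312), and Hoxb7 1427494_at, with a mean signal of 16.8, gave 2.52 ± 0.77 (adjusted p = 0.321). Both levels lay within the range of the genes of other organs. Hoxb9 1452317_at, with a mean signal of 95.9, lay above that range. In the same fit KO against WT gave -1.0036 ± 0.37 for Hoxb9 under saline (limma, adjusted p = 0.9991). Under folinic acid it gave -0.64 ± 0.37 (adjusted p = 0.9999). Its KO arrays lay below its WT arrays in both comparisons. Among probe sets above the filter, groups did not overlap for 4.42% under saline and 4.94% under folinic acid. No such share was taken for probe sets below the filter. The highest KO and lowest WT log2 signals were 6.41 and 6.64 under saline, and 6.69 and 6.72 under folinic acid.

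Folr4, the targeted gene, now named Izumo1r, was too dim to check the genotype labels. Its log2 signals were 3.12, 3.88, 5.37 and 2.62 in KO folinic acid, 3.51, 6.13 and 2.81 in KO saline, 4.03, 3.75 and 5.78 in WT folinic acid and 4.25, 5.55, 5.72 and 6.18 in WT saline uteri, all below the filter. KO differed from WT by -1.12 over 7 and 7 arrays (exact permutation test, two-sided, p = 0.0991), with overlap. Per array, the median signal ran from 129.5 to 156.7, the mean Spearman correlation with the other arrays from 0.932 to 0.953, the actin ratio from 1.54 to 3.65 and the Gapdh ratio from 1.14 to 2.49. Markers of uterine epithelium, stroma and smooth muscle were all above the filter, 8 of 8 in each list.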

How the data were processed

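The deposited table held linear intensity signals, 1 per probe set and array, which the authors made with MAS5 per the submitters' processing notes; no version, aligner or build is given in the sources used here. Trimmed by 2% at each end, the mean signal was 500.002 to 500.003 throughout, which points to 1 scaling factor per array, and the values were used without further normalization. Of 45101 probe sets 64 controls were left out. Of the other 45037, 34945 had 1 gene symbol in the platform annotation, 932 several and 9160 none. All 48 Hox probe sets matched RefSeq by gene identifier.

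A floor of 1, reached by 0.505% of values, was set before log2 was taken. The filter kept 22519 probe sets. One limma 3.58.1 fit in R 4.3.3 with 4 group means and variances moderated with a trend (10 residual and 5.04 prior degrees of freedom) gave all comparisons, two-sided, with Benjamini-Hochberg adjustment over all probe sets kept and a threshold of 0.05. Errors of differences are standard errors. The number of arrays limits the precision. The fit was tested on simulated data.

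Members, lists and tests were chosen with earlier results of these data known. A Hox gene is represented by its probe set of highest mean log2 signal, with others above the filter beside it and those below it given by range or count. Values on every array are given for Hoxa9, Hoxa10, Hoxa11, Hoxa13 and the 3 Hox probe sets of smallest p in each comparison, and from each list the 2 members of smallest p are named. The antisense RNA Hoxa11os is shown by array because of its place beside Hoxa11. Folr4 was tested by an exact permutation test. Replicate numbers in the labels did not pair the samples by their deviations from group means. The alternatives were quantile normalization, an offset of 16, keeping all probe sets or the upper 35 percent by mean signal, variances without a trend, only the groups compared, a replicate block, the other probe set of a gene, and leaving out each array.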

Additional observations from a re-analysis of the deposited data

Results flagged for a closer look

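In groups of 4 arrays, 28 groups of values of the named Hox probe sets were checked for 1 array far from the other 3, and 4 stood out; chance flags about 1 group in 20. The log2 signal of Hoxa11 was 11.45 in WT saline replicate 3, with the other arrays of the group between 12.21 and 12.32. Hoxa13 was 6.24 in the same array, with the others between 5.07 and 5.23, all below the filter. Hoxd3 was 7.40 in the same array, with the others between 7.91 and 8.0. Hoxd8 1433638_s_at was 10.03 in KO folinic acid replicate 3, with the others between 9.69 and 9.72. WT saline replicate 3 had the highest 3-prime to 5-prime ratios of actin, 3.65, and Gapdh, 2.49, and the part of RNA quality in these values was not tested.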

How the results depend on the processing

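Under every alternative run, 0 Hox probe sets passed the threshold in any comparison or in the F test. Of the results that answer a comparison, 358 recomputed values kept their direction and side of the threshold or count, 24 moved and 1 became stronger. Among the single probe sets 370 stayed and 6 reversed. For each difference of the Hox probe sets above the filter, the array that moved it most toward 0 was left out. This moved 109 of 115 differences by over 1.5 times toward 0, or past it. No such count was made over all probe sets. Of the 115, 55 turned sign. The Hox probe sets above the filter numbered 13 at the upper 35 percent and 22 to 23 when 1 array was left out. The F test called 6 probe sets of all with no filter, 1 with variances without a trend and 1 to 7 without 1 array. Between KO and WT under folinic acid the calls were 2 with an offset of 16, 2 with no filter and 1 to 2 without 1 array. Under saline they were 2 with the offset, 3 with no filter, 2 with only the groups compared and 1 to 2 without 1 array, and the median Hox difference there was 0.014 at the upper 35 percent. Folinic acid in KO called 2 with no filter and 0 to 666 without 1 array, the 666 without KO folinic acid replicate 2, of which 0 were Hox probe sets (2.96% of all called). At an unadjusted p under 0.05, 3 of 23 Hox probe sets were counted without that array against 19.5% of all. The cause of these moves was not tested. Reversed values were Hoxa5 1443803_x_at between KO and WT under folinic acid, -0.029 to 1.33 without 1 array, the lowest without WT folinic acid replicate 2, and -0.012 with its other probe set. Hoxa5 1448926_at between KO and WT under saline turned to 0.20, and Hoxd8 1433638_s_at to -0.037, each with the other probe set. For folinic acid in WT the Hoxd8 probe sets gave 0.36 and -0.27, or 0.23 and -0.04 without the array that moved each most toward 0. Without 1 array, the Hoxa10 difference for folinic acid in KO ran from -0.68 to -0.33 (limma, adjusted p 0.214 to 0.563) and that of Hoxa11 from -0.86 to -0.41 (0.257 to 0.633). Folr4 ran from -1.49 to -0.90, with an exact permutation p of 0.0245 and a difference of -1.49 without KO saline replicate 2. Same-numbered arrays of different groups had a median correlation of deviations of 0.01 over 19 pairs, from -0.34 to 0.35, so the numbers were not taken as pairs. With a replicate block, 0 Hox probe sets were called, all counts of calls stayed as they were, and Hoxa10 for folinic acid in KO was -0.48. Dim probe sets carry little signal over background, so differences below the filter are of little weight.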
